A study of Mus musculus with 2 samples.

Results

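Ldha and Ldhb, the genes of the muscle-type and heart-type lactate dehydrogenase subunits, are described here in mouse eye organoids. They were taken by symbol and are 2 of the 27998 genes in the count tables of both libraries. The organoids were grown from 1 embryonic stem cell line, Rax-GFP ESCs (Rax-GFP knockin Het), which carries a GFP reporter at Rax, a homeobox gene of the early eye. Single cells were profiled with a droplet kit that reads the 3′ end of transcripts, in 1 library from culture day 6 and 1 from culture day 4, and cells of both days share the line, the genotype and the Matrigel-containing culture. Each library pooled 3 biological experiments without a map from cells to experiments, so each day was 1 sample, and culture day and library cannot be told apart. The labels call the cells retina progenitors. Of the genes that mark these, day 6 cells held 112 CPM (counts per 1000000) of Six6 and 94.3 CPM of Rax, and day 4 cells held 1.61 CPM of Six6 and 3.45 CPM of Rax. The low Six6 and Rax of the day 4 library went against that name.

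Lactate dehydrogenase is a tetramer that interconverts pyruvate and lactate at the end of glycolysis, with NADH and NAD+ exchanged in the same step. Subunits encoded by Ldha favour the making of lactate and subunits encoded by Ldhb favour its use, so the mixture of both shapes how the tetramer behaves. Pluripotent and early neural cells are known for high glycolysis. Ldha is a textbook target of the hypoxia-inducible factors, whose core sites include ACGTG, and of Myc, which binds the E-box CACGTG.

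The Ldhb promoter and 1 of 2 Ldha promoters are shown. The Ldha promoter shown holds ACGTG and CACGTG, and the Ldhb promoter holds neither. RefSeq promoters on build GRCm38.p6 were matched for both genes, each from 250 bases before to 50 after the start site, 5′ to 3′ on the gene's own strand, and capitals mark ACGTG read on either strand. Ldha lies on chromosome 7 on the plus strand (46841475 to 46855627) and its promoter shown here spans chr7:46845554-46845853. Ldhb lies on chromosome 6 on the minus strand (142490249 to 142507957) and its promoter spans chr6:142507908-142508207.
Ldha: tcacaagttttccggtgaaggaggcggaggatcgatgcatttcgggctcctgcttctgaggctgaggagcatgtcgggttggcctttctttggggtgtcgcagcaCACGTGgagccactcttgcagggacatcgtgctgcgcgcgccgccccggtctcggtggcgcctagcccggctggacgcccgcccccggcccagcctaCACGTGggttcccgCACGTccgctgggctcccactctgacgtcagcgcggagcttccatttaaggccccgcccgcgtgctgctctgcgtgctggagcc
Ldhb: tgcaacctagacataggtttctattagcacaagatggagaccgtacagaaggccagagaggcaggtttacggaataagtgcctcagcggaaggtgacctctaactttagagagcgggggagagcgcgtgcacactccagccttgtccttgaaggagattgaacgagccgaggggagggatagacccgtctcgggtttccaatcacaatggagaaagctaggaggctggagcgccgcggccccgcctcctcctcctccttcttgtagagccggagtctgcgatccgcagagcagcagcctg
The Ldha window held 5 matches to ACGTG, which 19.6% of 32851 RefSeq mouse promoters of this length contain at least once. CACGTG reads the same on both strands, so each of its 2 matches, at -145 and -48 from the start site, accounts for 2 of those 5, and 7.15% of promoters contain it. The window also held 1 match to the cyclic-AMP element TGACGTCA, found in 1.79% of promoters, and 3 to the GC box GGGCGG, found in 35.7%. The Ldhb window held 0 matches to all 4 motifs, as did the window of a second Ldha start site that begins at 46846832. The letters GCGTG, which differ from ACGTG in the first base, were not counted and occur in both windows printed here. Which Ldha start site these cells use was not tested. GC content was 67.3% with 30 CpG sites for the Ldha window shown and 57.3% with 17 for Ldhb. The second Ldha window had 56.7% with 13, and the medians over all promoters were 52.7% and 7. These matches describe the letters of the windows and nothing about binding.

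Of 7446 day 6 and 9114 day 4 barcodes, 6641 and 8147 cells passed the filter that the study states. Both barcode numbers lie below the cell numbers given by the study for these stages after filtering, so the matrices used here may differ from those behind its figures. Their median depth was 12514 UMIs (unique molecular identifiers, 1 per captured transcript) on day 6 and 11216 on day 4, and 91 barcodes occurred in both libraries. A level is given in CPM, the UMIs of a gene summed over a group of cells per 1000000 UMIs of that group, with an exact Poisson 95% interval. Ratios carry exact conditional binomial intervals and shares exact Clopper-Pearson intervals. All of these cover counting error only, since no spread between experiments can be had. A difference was called by size where it reached 1.5-fold and its interval left out 1. The Ldhb share is Ldhb UMIs as a percent of Ldha plus Ldhb UMIs. It needs no library total, although the 2 transcripts may be captured with unequal efficiency.

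Ldha was the main lactate dehydrogenase transcript on both days, and the days differed more in Ldhb than in Ldha. Day 6 cells held 1715 CPM of Ldha (1707 to 1724), against 2033 CPM (2024 to 2042) in day 4 cells, and this ratio of 0.844 (0.838 to 0.850) was not called. They held 263 CPM of Ldhb (259 to 266), against 411 CPM (407 to 415) in day 4 cells, which at 0.640 (0.629 to 0.650) was lower by size. Of the 2 genes, 1 was thus lower and 0 higher on day 6, where 6.28% of 6699 genes were lower by size and 13.3% higher, around a median log2 ratio of 0.14. The Ldhb share was 13.3% (13.1 to 13.4) on day 6 and 16.8% (16.7 to 17.0) on day 4.

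Nearly every cell held Ldha. With every cell thinned to 5000 UMIs (182 shallower day 4 cells dropped), Ldha was seen in 98.3% of day 6 and 99.4% of day 4 cells, and unthinned in 99.6% and 99.8%. Ldhb was seen in 56.1% of day 6 and 67.9% of day 4 cells, and unthinned in 78.7% and 86.2%. The background of Ldhb from free RNA was not measured. Among cell groups rich in a marker, the lowest thinned percent of cells with Ldhb was 17.5%. It was that of the 160 day 6 cells rich in Col4a1 (median depth 10854 UMIs). Other genes named as lactate dehydrogenases were scarce. Day 6 cells held 0.831 CPM of Ldhc, the testis-type subunit, 0.330 CPM of Ldhd, the D-lactate dehydrogenase, and 0.0456 CPM of Ldhal6b, and day 4 cells 2.75, 0.476 and 0.0811 CPM of these. The Ldha level is uncertain by reads that it may share with 2 processed pseudogenes, Ldha-ps on chromosome 2 and Ldha-ps2 on chromosome 4, which have no line in the count tables.

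Depth moved with the Ldha level. Across 4 equal sets of cells from shallow to deep, Ldha ran 1338.0, 1524, 1768 and 1931 CPM on day 6 and 1779, 1951, 2109 and 2110.0 CPM on day 4. Ldhb ran 261, 243, 259 and 277 CPM on day 6 and 492, 412, 419 and 377 CPM on day 4. Ldha was thus lowest in the shallowest set on both days, and Ldhb was highest there on day 4 only. The day ratio of Ldhb was 0.553 among cells of 5000 to under 10000 UMIs, 0.610 among those from 10000 to under 15000 and 0.725 among those of 15000 or more, and in the last range it was not called. With every cell thinned to 5000 UMIs the day ratio was 0.819 for Ldha, not called, and 0.598 for Ldhb, called. The part of depth in the day difference was not otherwise tested.

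Most of the day difference in Ldhb lay with cells rich in Dppa5a, a gene of naive pluripotent cells. Cells with 5 or more Dppa5a UMIs made up 10.0% of day 6 cells (667) and 26.7% of day 4 cells (2178). They held 33.9% of the Ldhb UMIs of day 6 and 62.8% of those of day 4, but 9.45% of the Ldha UMIs of day 6 and 23.1% of those of day 4. Among the 5974 day 6 and 5969 day 4 cells under this limit, Ldhb had 195 CPM in day 6 cells against 214 CPM in day 4 cells, and its ratio of 0.912 (0.892 to 0.933) was not called, where 6.29% of 6663 genes were lower by size and 13.1% higher. Ldha there had 1742 CPM in day 6 cells against 2182 CPM in day 4 cells (0.798). Leaving out the Dppa5a cells thus brought the days together for Ldhb and not for Ldha. Among cells with 0 Dppa5a UMIs the day ratio was 0.993 (0.963 to 1.02) for Ldhb and 0.795 for Ldha. Among cells over the limit it was 0.904 (0.881 to 0.927) for Ldhb and 0.904 (0.887 to 0.921) for Ldha, and none of these was called.

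The cells of each day were then grouped by 7 markers. Dppa5a marks naive pluripotent cells, Fgf5 the primed epiblast, Six6 the eye field and optic vesicle, Fezf2 the anterior forebrain, Wnt8b the dorsal forebrain, Sox10 the neural crest, and Col4a1, a basement membrane collagen, the primitive endoderm. Cells over a limit (5 UMIs of Dppa5a or Col4a1, 2 of the others) were set against cells of the same day with 0 UMIs of that marker, wherever at least 50 cells were over it, which gave 9 comparisons. Ldhb was called in 8 of these 9, 3 higher and 5 lower, whereas Ldha was called in 2 of 9, 1 higher and 1 lower. Of all genes, 0.941% to 29.2% were higher by size and 2.12% to 24.6% lower, depending on the comparison. Across these groups of cells over a limit Ldhb spanned 42.6 to 910.2 CPM and Ldha 967 to 2326 CPM. The groups overlapped, so these counts are not of separate cells, and Ldhb was called in 5 of 8 and Ldha in 1 of 8 when disjoint groups, each over 1 limit alone, were set against cells over no limit. That setting changed the comparator as well as the overlap. The 1877 day 6 cells over the Six6 limit alone, for example, had 270.3 CPM of Ldhb. They were called higher against the 169 CPM of cells over no limit. All 2001 Six6 cells, at 269 CPM, were not called against the 269 CPM of cells with 0 Six6 UMIs. Among only cells under the Dppa5a and Col4a1 limits, Ldhb was called in 2 of 5 comparisons and Ldha in 0 of 5.

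**Figure D1:**
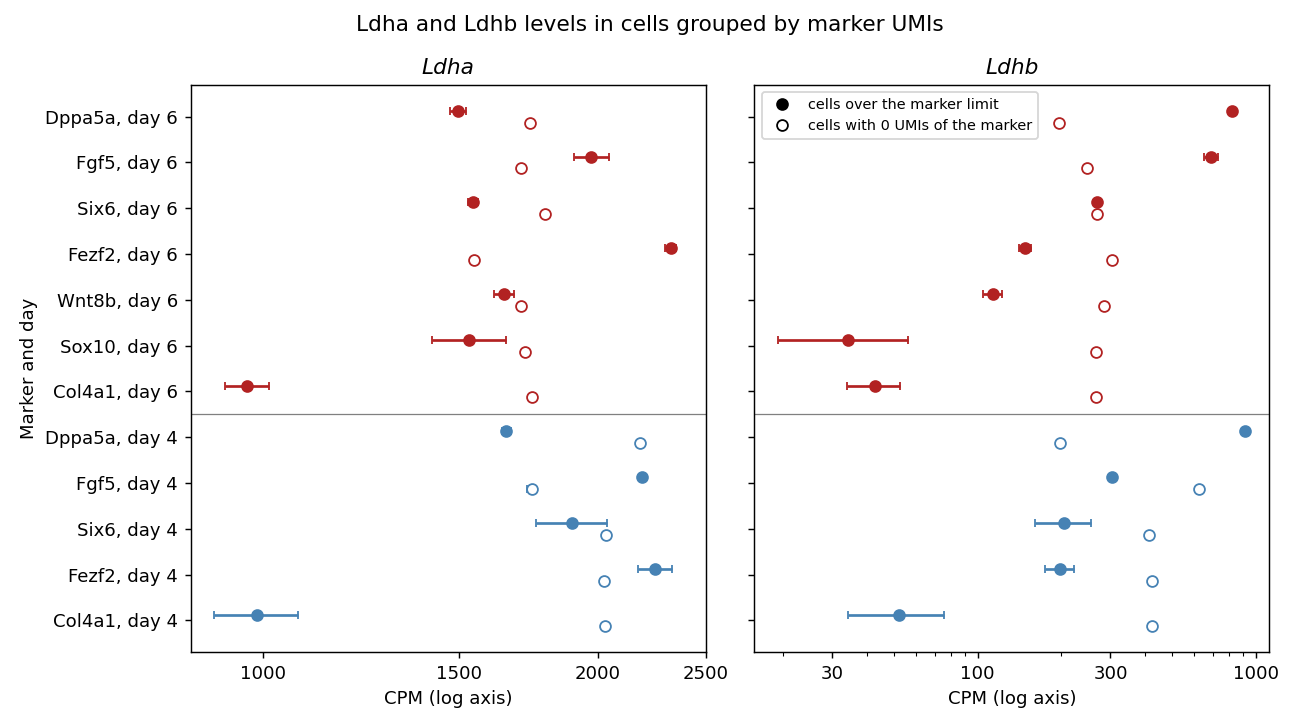
Levels of Ldha (left) and Ldhb (right) in CPM on log axes, in cells over each marker's limit (filled) and cells with 0 UMIs of it (open), day 6 in red above day 4 in blue. Bars are exact Poisson 95% intervals. Ldhb ran lowest in Sox10 and Col4a1 cells (34.2 and 42.6 CPM on day 6) and highest in Dppa5a cells (823 CPM on day 6, 910.2 CPM on day 4), while Ldha in filled groups stayed between 967 and 2326 CPM.

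Dppa5a cells carried the most Ldhb of the groups compared. They were not purely naive by their markers. On day 6 all 7 naive pluripotent and all 6 primed epiblast markers exceeded 10 CPM in them, with sums of 4797 CPM, of which Dppa5a gave 4407, and 813 CPM. On day 4 only 4 of 7 naive but all 6 primed markers did, with sums of 2635 CPM, of which Dppa5a gave 2433, and 1668 CPM. On day 6 the 667 Dppa5a cells had 823 CPM of Ldhb, against 195 CPM in the 4898 cells with 0 UMIs, 4.21-fold higher (4.09 to 4.33). On day 4 the 2178 Dppa5a cells had 910.2 CPM, against 197 CPM in 2828 cells, 4.62-fold higher (4.49 to 4.75). In this comparison 13.4% of 6899 genes were higher by size on day 6 and 7.18% of 6476 on day 4. Ldha was below its level in the 0-UMI cells without reaching the limit, at 1496 against 1737 CPM on day 6 (0.861) and 1655 against 2184 CPM on day 4 (0.758). Within each of the 3 depth ranges Ldhb was again higher by size, by 3.33-fold to 4.47-fold on day 6 and 3.89-fold to 5.66-fold on day 4.

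The Ldhb share went up in steps with Dppa5a. On day 6 it was 10.1% at 0 UMIs, 9.62% at 1, 10.7% at 2 to 4, 19.1% at 5 to 9, 24.2% at 10 to 19 and 38.7% at 20 or more. On day 4 the same bins gave 8.27%, 8.68%, 10.2%, 18.5%, 31.7% and 44.4%. The share was thus nearly level up to 4 UMIs and higher in each bin above that on both days.

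**Figure D2:**
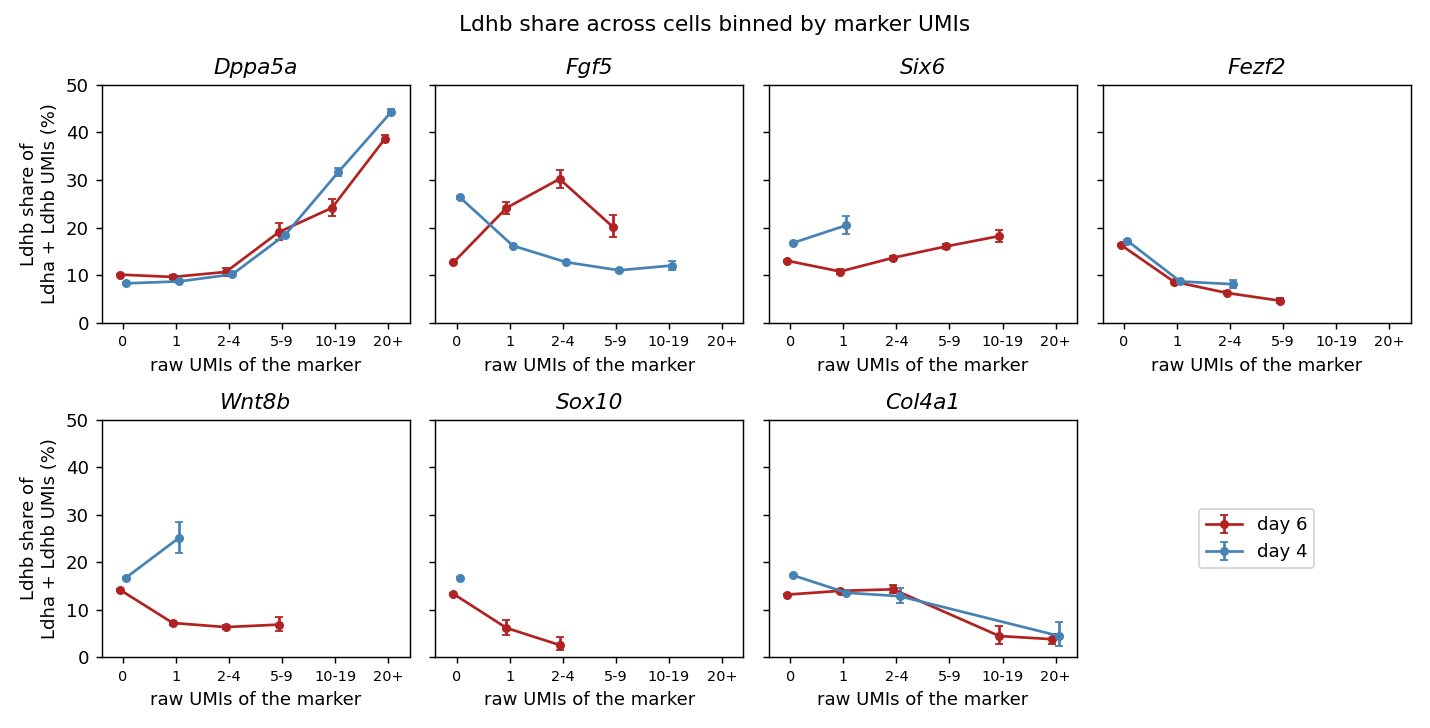
Ldhb share of Ldha plus Ldhb UMIs (percent, y axis) in cells binned by raw UMIs of each of the 7 markers (x axis), day 6 in red and day 4 in blue, for bins of 20 or more cells. Bars are exact 95% binomial intervals. With Dppa5a the share reached 38.7% on day 6 and 44.4% on day 4, with Six6 on day 6 it reached 18.2%, and with Fezf2 on day 6 it went down to 4.63%.

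Single cells differed widely in the share. Among cells with at least 10 Ldha plus Ldhb UMIs (5395 on day 6 and 7356 on day 4), the median share was 9.09% on day 6 and 9.68% on day 4. Its SD over cells was 14.9 percentage points on day 6 and 17.9 on day 4, where sampling of UMIs at 1 common share would give 7.16 and 7.66. Ldhb exceeded Ldha in 170 day 6 cells (3.15%) and 548 day 4 cells (7.45%). With 20 or more Dppa5a UMIs that was so in 21.1% of cells on day 6 and 35.7% on day 4, and with 0 Dppa5a UMIs in 1.34% on day 6 and 0.284% on day 4. Even the cells richest in Dppa5a were spread from mostly Ldha to mostly Ldhb.

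**Figure D3:**
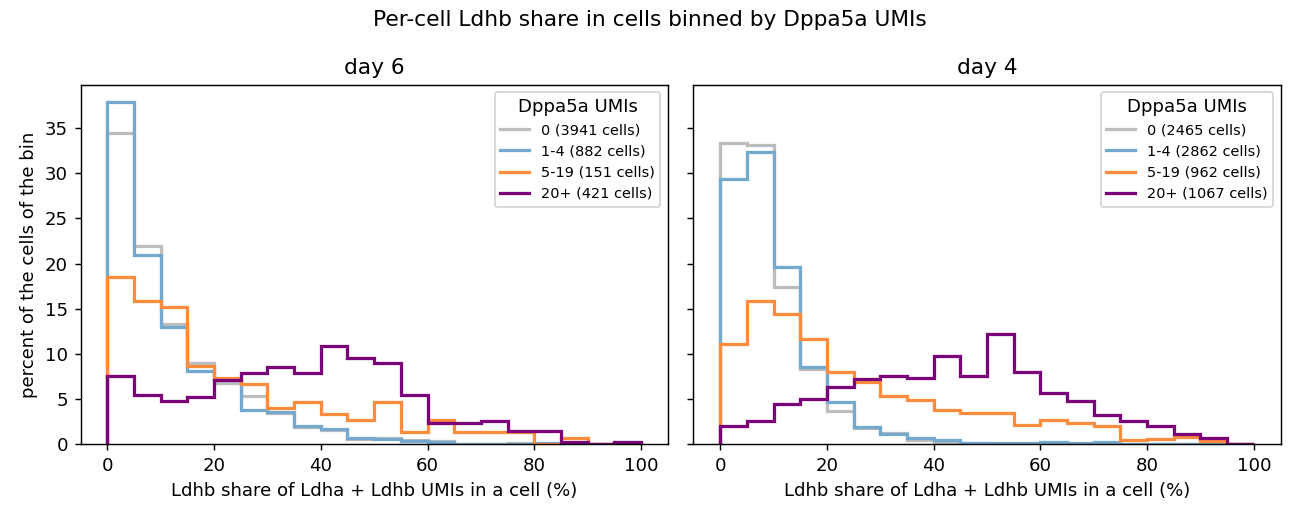
Distribution of the Ldhb share over single cells (x axis, percent, in steps of 5) as the percent of cells in each Dppa5a bin (y axis), for day 6 (left) and day 4 (right) and cells with at least 10 Ldha plus Ldhb UMIs. Cells with 0 to 4 Dppa5a UMIs pile up at low shares, and cells with 20 or more spread around medians of 36.7% on day 6 and 43.9% on day 4.

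Genes near the enzyme in metabolism were taken from 3 lists. In Dppa5a cells of day 4, 2 of 17 measured genes of the lactate and pyruvate node were higher and 0 lower, against 7.18% higher and 9.31% lower among all genes. They were Pdk1, the kinase that shuts pyruvate dehydrogenase (7.34-fold, 187 against 25.5 CPM), and Mpc1, a subunit of the mitochondrial pyruvate carrier (4.26-fold, 33.6 against 7.89 CPM). Of the glycolytic enzymes 2 of 13 were higher and 0 lower, namely the phosphofructokinase Pfkp (5.05) and the aldolase Aldoa (1.57). Of the hypoxia and Myc list 9 of 14 were higher and 0 lower, led by Ndrg1 (6.08) and the prolyl hydroxylase subunit P4ha1 (2.85). The median log2 ratio was 0.22 for the glycolytic enzymes and 0.66 for the hypoxia and Myc list, against -0.15 over all genes.

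On day 6 the Dppa5a cells gave 3 higher and 3 lower of 17 node genes, 5 higher and 0 lower of 14 glycolytic enzymes and 10 higher and 0 lower of 16 in the hypoxia and Myc list. The median log2 ratios were -0.07, 0.45 and 1.01 in that order of lists, against -0.22 over all genes, of which 13.4% were higher and 24.6% lower. Pdk1 (7.77) and Mpc1 (5.28) led the node again, Pfkp was at 10.8, and the malate dehydrogenase Mdh1 was lower (0.565). These day 6 counts include 93 Dppa5a cells that also passed the Col4a1 limit. All 7 primitive endoderm markers exceeded 10 CPM in the day 6 group and 4 of 7 in the day 4 group, and the part of these cells in the list counts was not tested.

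Fgf5 cells showed opposite Ldhb ratios on the 2 days, a difference that was not itself tested. On day 6 the 101 Fgf5 cells had 689.9 CPM of Ldhb, against 247 CPM in cells with 0 UMIs, 2.79-fold higher (2.62 to 2.97), where 10.3% of 6787 genes were higher by size and 20.8% lower. On day 4 the 3763 Fgf5 cells had 305 CPM, against 625 CPM, a ratio of 0.487 (0.477 to 0.498) and lower by size, where 3.15% of 6480 genes were lower. Dppa5a moved with both results, at 2475 CPM in the Fgf5 cells of day 6 and 436 CPM in those of day 4. Of the Fgf5 cells, 71 of 101 on day 6 and 817 of 3763 on day 4 also passed the Dppa5a limit, and the day 4 cells with 0 Fgf5 UMIs included 976 such cells at 1243 CPM of Ldhb. Fgf5 cells over the Dppa5a limit had 837 CPM of Ldhb on day 6 and 627 CPM on day 4. Those under it had 334 CPM on day 6 (30 cells, 282 to 392) and 201 CPM on day 4 (2946 cells). Cells with 0 Fgf5 UMIs under the Dppa5a limit had 194 CPM on day 6 (191 to 197) and 231 CPM on day 4. On day 6 the Fgf5 cells thus stayed higher under that limit, in a group too small to compare by size. Day 6 cells with 0 Fgf5 UMIs over the Dppa5a limit had 785 CPM. Among day 4 cells under the Dppa5a and Col4a1 limits the Ldhb ratio of Fgf5 cells was 0.868 (0.835 to 0.902), not called. Ldha in Fgf5 cells was at 1973 against 1706 CPM on day 6 (1.16) and 2193 against 1744 CPM on day 4 (1.26), neither called.

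Six6 cells of day 6 had a higher Ldhb share than cells with 0 Six6 UMIs, at 14.8% (14.5 to 15.1) against 13.0% (12.8 to 13.2) over all kept cells, while the Ldhb level differed only once the Dppa5a and Col4a1 cells were set aside. Over all cells the 2001 Six6 cells and the 3839 cells with 0 Six6 UMIs had 269 CPM of Ldhb each, with 0.972 to 1.03 as the interval of the ratio, and 1544 against 1792 CPM of Ldha (0.862). Neither gene was called there, where 1.94% of 6806 genes were higher by size and 4.11% lower. The 0-UMI cells, however, included 688 cells over the Dppa5a or Col4a1 limit, at 793 CPM of Ldhb. Without such cells on either side, a choice made after the data were seen, Six6 cells had 267 CPM of Ldhb against 145 CPM, 1.84-fold higher (1.77 to 1.90) and called, where 1.32% of 6746 genes were higher by size. Ldha stayed uncalled at 1548 against 1871 CPM (0.827). Across Six6 bins of those cells (0, 1, 2 to 4, 5 to 9 and 10 to 19 UMIs), Ldhb ran 145, 209, 246, 286 and 333 CPM while Ldha ran 1871, 1826, 1583, 1497 and 1508 CPM. The Ldhb share of these bins was 7.21%, 10.3%, 13.5%, 16.05% and 18.1%, so it was higher with each step in Six6. Median depth differed too, at 12259, 11718, 12224, 14095.5 and 16111 UMIs, and its part in these gradients was not tested.

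Fezf2 cells ran the other way. The 823 Fezf2 cells of day 6 had 2326 CPM of Ldha, against 1546 CPM in 4818 cells with 0 UMIs, a ratio of 1.505 (1.48 to 1.52) that sat just over the limit and was called, where 1.07% of 6794 genes were higher by size. With the Dppa5a and Col4a1 cells left out it was 1.49 and not called. Ldhb was at 148 against 303 CPM, a ratio of 0.488 (0.465 to 0.512) and lower by size, where 2.12% of genes were lower, and 0.669 (0.635 to 0.703) and not called without those cells, where 0.993% of 6747 genes were higher and 0.637% lower. Among cells under the Dppa5a and Col4a1 limits, Ldha ran 1566, 1951, 2224 and 2986 CPM across Fezf2 bins of 0, 1, 2 to 4 and 5 to 9 UMIs. Ldhb ran 216, 166, 144 and 145 CPM over the same bins, and its share was 12.1%, 7.85%, 6.09% and 4.63%. The median depth of these bins also differed, at 12062, 12664.5, 13861.5 and 15770.0 UMIs, and its part in the Ldha gradient was not tested here. On day 4 the 104 Fezf2 cells had 197 against 423 CPM of Ldhb (0.466, lower by size, as were 4.55% of 6480 genes, with 4.18% higher) and 2251 against 2026 CPM of Ldha (1.11). Under both limits the day 4 Ldhb ratio was 0.910 (0.806 to 1.02), not called. The comparator matters here, since day 6 cells with 0 Fezf2 UMIs under both limits included 1642 Six6 cells at 276 CPM of Ldhb. Day 6 cells over the Fezf2 limit alone had 139 CPM of Ldhb and 2445 CPM of Ldha. Cells over no limit had 169 and 1751 CPM, and neither gene was called. On day 4 Ldhb was at 173 against 232 CPM in these sets, also not called.

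Wnt8b cells had low Ldhb with average Ldha. The 368 Wnt8b cells of day 6 had 113 CPM of Ldhb, against 283 CPM in 5822 cells with 0 UMIs, a ratio of 0.400 (0.370 to 0.433) and lower by size, where 2.68% of 6801 genes were lower and 1.82% higher. Under the Dppa5a and Col4a1 limits the ratio was 0.538 (0.496 to 0.583), still called. Ldha was at 1646 against 1705 CPM (0.966). Wnt8b cells with 2 or more Fezf2 UMIs (119 cells) and without Fezf2 (158 cells) had much the same Ldhb, at 118 CPM (103 to 134) and 117 CPM (103 to 132), while Ldha was 1923 CPM in the first set and 1503 CPM in the second.

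The Six6 and Fezf2 cells of day 6 were then set against each other directly, under the Dppa5a and Col4a1 limits. The 1642 cells with 2 or more Six6 UMIs and 0 Fezf2 had 1457 CPM of Ldha (1441 to 1473), against 2292 CPM (2261 to 2323) in the 635 cells with 2 or more Fezf2 UMIs and 0 Six6, a ratio of 0.636 (0.625 to 0.647). Ldhb was at 276 CPM (269 to 283) in the Six6 cells, against 129 CPM (122 to 137) in the Fezf2 cells, 2.14-fold higher (2.01 to 2.27). The subunit genes were thus called in opposite directions, where 1.96% of 6733 genes were higher by size and 2.54% lower. The Ldhb share was 15.9% (15.6 to 16.3) in the Six6 cells and 5.34% (5.05 to 5.64) in the Fezf2 cells. Of cells with at least 10 summed UMIs, 84 of 1356 Six6 cells (6.19%) and 140 of 579 Fezf2 cells (24.2%) had 0 UMIs of Ldhb.

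Both calls held in each depth range. For Ldha the ratio of Six6 over Fezf2 cells was 0.596 among cells of 5000 to under 10000 UMIs, 0.648 among those from 10000 to under 15000 and 0.659 among those of 15000 or more. For Ldhb it was 2.20, 1.93 and 2.28 in the same ranges. The 98 cells with 2 or more UMIs of both markers had 2196 CPM of Ldha, 211 CPM of Ldhb and a share of 8.75% (7.86 to 9.70). The 1899 cells with 0 of both had 1661 CPM of Ldha, 156 CPM of Ldhb and a share of 8.60% (8.33 to 8.87). Cells with both markers were close to the Fezf2 cells in Ldha and between both groups in Ldhb.

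**Figure D4:**
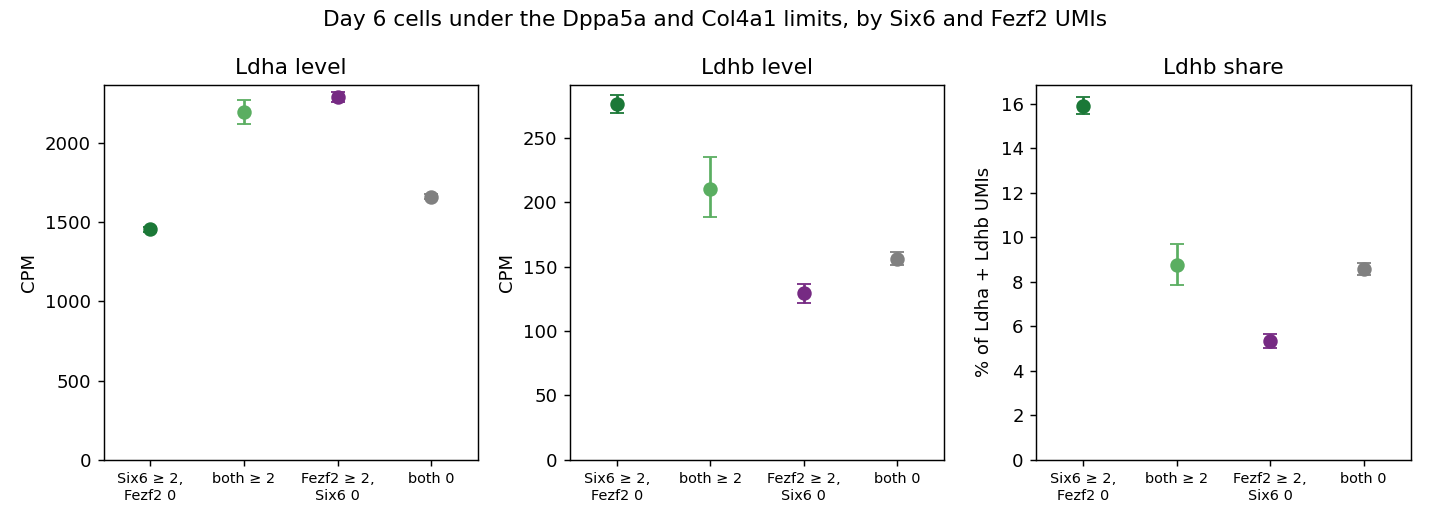
Ldha level, Ldhb level (CPM) and Ldhb share (percent) in day 6 cells under the Dppa5a and Col4a1 limits, grouped by Six6 and Fezf2 UMIs, with exact 95% intervals. Six6 cells without Fezf2 lie at 1457 CPM of Ldha and 276 CPM of Ldhb, and Fezf2 cells without Six6 at 2292 CPM and 129 CPM.

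Other genes of the pathway differed between these cells as well. Against the 1.96% higher and 2.54% lower among all genes, 0 of 11 measured glycolytic enzymes were higher and 4 lower in Six6 over Fezf2 cells, namely Pgk1 (0.542), Aldoa (0.583), Pfkl (0.614) and Tpi1 (0.644), with a median log2 ratio of -0.34 against 0.04 over all genes. In the hypoxia and Myc list 1 of 13 was higher and 6 lower (median -0.53). The glucose transporter Slc2a3 was at 90.8 against 316 CPM (0.287) and Slc2a1 at 201 against 537 CPM (0.375), while Bnip3, a mitophagy receptor, was at 0.291 and the stress gene Ddit4 at 0.385. In the lactate and pyruvate node 2 of 17 were higher and 1 lower (median -0.13). The lactate exporter Slc16a3 was lower (62.3 against 125 CPM, 0.499), and both subunits of the mitochondrial pyruvate carrier were higher, Mpc1 at 15.3 against 9.38 CPM (1.63) and Mpc2 at 57.2 against 34.8 CPM (1.64).

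Neural crest-like and primitive endoderm-like cells had the least Ldhb. Only 25 day 6 cells and 0 day 4 cells had 2 or more Sox10 UMIs, too few for a comparison. They had 1531 CPM of Ldha (1418 to 1652) and 34.2 CPM of Ldhb (19.1 to 56.4), a share of 2.18%. In them 5 of 6 neural crest markers exceeded 10 CPM, among them Sox10, by which the cells were picked. The 160 Col4a1 cells of day 6 had 42.6 CPM of Ldhb, against 266 CPM in 5219 cells with 0 UMIs, a ratio of 0.160 (0.128 to 0.198), and 967 against 1744 CPM of Ldha, a ratio of 0.554 (0.530 to 0.580). Both genes were lower by size, where 22% of 7317 genes were lower. All 7 primitive endoderm markers exceeded 10 CPM in these cells, among them Col4a1, by which they were picked. The 38 Col4a1 cells of day 4 were too few to compare and had 52.0 CPM of Ldhb and 986 CPM of Ldha, close to those of day 6. The part of free RNA in these low Ldhb levels was not measured.

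Dppa5a and Ldhb parted in the Col4a1 cells. Of these, 93 of 160 on day 6 and 31 of 38 on day 4 also passed the Dppa5a limit, yet they had 44.4 CPM of Ldhb on day 6 (33.6 to 57.7) and 28.0 CPM on day 4 (14.5 to 48.9). Dppa5a cells under the Col4a1 limit had 941.5 CPM of Ldhb on day 6 (574 cells) and 924 CPM on day 4 (2147 cells). Ldhb exceeded Ldha in 0 of 56 of the day 6 cells with both markers that had at least 10 summed UMIs (upper limit 6.38%), and in 107 of 516 (20.7%) of the Dppa5a cells under the Col4a1 limit. Among day 6 cells with 5 to 19 Dppa5a UMIs the share was 4.35% in the 50 cells over the Col4a1 limit and 25.1% in the 145 under it, so the middle Dppa5a bins of day 6 mixed both kinds. In Col4a1 cells 0 of 12 measured glycolytic enzymes were higher and 5 lower, Eno1 (0.338) and Pkm (0.504) among them, and 10 of 16 hypoxia and Myc genes were higher and 2 lower, where 29.2% of all genes were higher and 22% lower. Of 17 measured node genes 4 were higher and 6 lower. Their median log2 ratio was -0.34, against 0.03 over all genes. The lactate and pyruvate transporter Slc16a1 was 6.04-fold higher (187 against 30.9 CPM) and its chaperone Bsg 2.59-fold higher (1085 against 419 CPM). The pyruvate dehydrogenase kinase Pdk3 was lower (13.03 against 45.0 CPM, 0.289), as were Pkm, the lactate exporter Slc16a3 (0.519) and Mdh1 (0.573).

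Genes whose pattern was most like that of each subunit gene were sought over 10 disjoint groups of cells (6 of day 6 and 4 of day 4), among 3448 genes at 50 CPM or more in at least 1 group. For Ldha the nearest were Hax1 (Pearson r = 0.958), Oard1 (0.945), the mitochondrial folate enzyme Mthfd2 (0.944), Pfdn4 (0.941) and cyclin E1, Ccne1 (0.940). For Ldhb they were Dnajc21 (0.956), the mitochondrial aldehyde dehydrogenase Aldh2 (0.942), Wdr89 (0.932), Ifitm1 (0.930) and the Polycomb cofactor Mtf2 (0.930). Ldha and Ldhb had r = 0.223 with each other. The groups share 2 libraries and the r values describe these 10 points, of which the Col4a1 group was lowest in all 10 named genes as well as in Ldha and Ldhb.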

How the data were processed

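Count matrices of both libraries were used, with raw UMI counts per gene and barcode that the authors deposited without normalization. Reads had been aligned to mm10. Cell Ranger 2.0.1 and Seurat 2.3.4 are named in the processing notes of the submitters, later versions in the methods. The filter required 500 to 26000 UMIs and 500 to 5000 genes per cell, and shares of haemoglobin counts up to 0.5%, of mitochondrial counts up to 10% and of ribosomal protein counts from 20%, which left 5105 to 25978 UMIs per cell on day 6 and 4636 to 25998 on day 4. No doublet caller was run and free RNA was left in. Group sums were made with python 3.11.15, numpy 2.4.6, pandas 2.3.3 and scipy 1.17.1. With 1 library per day no test was run. Ratios across genes needed a mean level of at least 10 CPM, and the code was tested on simulated data. Up to 4 genes per list with the largest log2 ratio of a comparison were named, plus the 5 genes most like each member by Pearson r of log2(CPM + 10). The members, markers and lists were chosen with earlier results of these data known. Gene positions are from GENCODE on GRCm38. Alternatives covered the filter, the scaling, the marker limits, disjoint groups and depth ranges.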

Additional observations from a re-analysis of the deposited data

Results flagged for a closer look

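Ldhb in Fgf5 cells over cells with 0 Fgf5 UMIs had a ratio of 2.79 on day 6 and 0.487 on day 4, opposite directions on the 2 days, and the difference between the days was not tested.

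Barcodes outside the cell filter, which enter a comparison only where all deposited barcodes were used as an alternative, also carried both genes. In 805 such barcodes of day 6 Ldha stood at 2152 CPM and Ldhb at 258 CPM, and in 967 of day 4 Ldha stood at 2192 CPM and Ldhb at 295 CPM. Their median depth was 32742 UMIs on day 6 and 33544 on day 4, and 792 of the day 6 and 960 of the day 4 barcodes left out were over the UMI limit.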

How the results depend on the processing

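No paired analysis was possible because each day was 1 library. The Ldha day ratio was 0.880 with all deposited barcodes, 0.853 without the upper UMI limit, 0.823 as a mean over cells, 0.819 after thinning, 0.801 with mitochondrial and ribosomal protein genes out of the totals, and 0.735, 0.781 and 0.912 in the 3 depth ranges from shallow to deep. In the same settings except the UMI limit the Ldhb day ratio was 0.686, 0.611, 0.598, 0.607, 0.553, 0.610 and 0.725, and it was not called with all barcodes or in the deepest range. Under the Dppa5a limit it was 0.872 thinned and 0.870 with those totals. The Ldhb share was 12.5% on day 6 and 15.5% on day 4 with all barcodes, 13.0% and 16.5% without the UMI limit, 13.1% and 16.6% without cells under 0.5% mitochondrial counts, 13.9% and 16.2% as a mean over cells, and 13.6% and 17.7% thinned. By depth it was 16.1% and 12.5% in the shallowest and deepest day 6 cells and 20.3%, 16.5% and 15.2% in the 3 day 4 ranges. Marker groups with Ldhb called numbered 5 of 8 when disjoint and set against cells over no limit, and 2 of 5 under the Dppa5a and Col4a1 limits. Those with Ldha called numbered 1 of 9 without cells low in mitochondrial counts or with the other totals, 1 of 11 with lower marker limits, 1 of 8 when disjoint and 0 of 5 under both limits. In the disjoint groups Six6 cells of day 6 were among those with Ldhb higher by size. Fezf2 cells of both days and Fgf5 cells of day 4 were no longer called for Ldhb. The depth ranges and the Dppa5a and Col4a1 limits were added after seeing the data. The causes of these shifts were not tested. Intervals cover counting error only, groups under 50 cells were not compared, and limits of free RNA and doublets were not measured.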

Other observations

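Cells with under 0.5% mitochondrial counts (210 on day 6 and 339 on day 4) had a high Ldhb share. It was 24.5% (23.1 to 26.0) on day 6 and 25.2% (24.0 to 26.4) on day 4, against 13.1% and 16.6% in the remaining cells of those days. On day 6 these cells held 421 CPM of Ldhb against 259 CPM in the rest, and 1296 CPM of Ldha against 1725 CPM. On day 4 they held 467 against 409 CPM of Ldhb, and 1387 against 2052 CPM of Ldha. Their median depth was 8151 UMIs on day 6 and 7500.0 on day 4, against 12633 and 11407.5 in the rest, and its part in these values was not tested.

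The Pearson r of Ldha and Ldhb levels over single cells was 0.03 on day 6 and -0.04 on day 4 over kept cells, which mix groups of different levels. Under the Dppa5a and Col4a1 limits it was -0.02 on day 6 (5907 cells) and 0.15 on day 4 (5962 cells). Over cells with 20 or more Dppa5a UMIs it was 0.33 on day 6 (472 cells) and 0.15 on day 4 (1130 cells). Cells of a day share a library, and the weak values in sparse counts are a description only.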
